A study of Mus musculus with 4 samples.

Results

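The 10 genes described here encode cytosolic and mitochondrial heat shock chaperones of T cells: Hspa1a, Hspa1b, Hspb1, Hsph1, Hspa8, Hsp90aa1, Hsp90ab1, Dnaja1, Dnajb1 and Hspe1. They were chosen by name, as a family, out of 32285 genes counted, and the rule that lists them uses no measured value. The choice was, however, made with earlier results of these data known. Chaperones hold unfolded proteins and help them refold. Hsp70 proteins bind exposed stretches of a client in cycles of ATP, J-proteins deliver the clients, exchange factors of the Hsp110 type reset the cycle, and Hsp90 proteins finish the folding of kinases and receptors. Some of these genes are read at all times, whereas others are switched on within minutes by the heat shock factor Hsf1 when proteins unfold, as in heat, fever or enzymatic digestion of a tissue.

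The cells came from B16 melanoma, a transplantable mouse skin tumor line, in mice aged 6 to 8 weeks at the start. Both groups carried a floxed Vsir gene (Vsir fl/fl), which encodes the immune checkpoint protein VISTA. In the group called VISTA-KO, a Cre recombinase under the Cd4 promoter deletes the gene in T cells of both the CD4 and the CD8 lineage, and myeloid cells are not targeted. The group called WT held littermates without Cre. All mice received a TRP2 peptide vaccine with CpG and R848 on day 3 and antibody to CTLA-4 on days 4 and 8 after inoculation, so no untreated tumor was compared. Tumors were taken on day 18 after treatment and digested with Liberase and DNase for 20 minutes at 37 °C, and sorted CD4+ and CD8+ tumor-infiltrating lymphocytes (TILs) were pooled into 1 single-cell library per genotype. The methods give 5 to 6 mice per pool and a legend 6 to 8 tumors. With 1 pooled library per genotype, the spread between mice is unknown and no difference was tested. All intervals are exact 95% intervals and cover counting error only.

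The library labelled WT held 10224 cells with 72016854 unique molecular identifiers (UMIs, 1 per captured mRNA molecule) and the library labelled VISTA-KO 9946 cells with 59817786. Median UMIs per cell were 4723 and 4670. Vsir itself did not check these labels. It stood at 112 CPM (UMIs of the gene per 1000000 UMIs, 109.7 to 115) in the library labelled WT and at 113 CPM (110.5 to 116) in the one labelled VISTA-KO. A count per gene cannot tell transcripts with the deleted part from transcripts without it, so each direction given below rests on the labels alone. Of the kept cells, 144 barcodes occurred in both libraries, and leaving those cells out turned the sign of no ratio of Hspa1a, Hspa1b or Dnaja1.

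TILs were divided by transcripts into 5 kinds. CD8+ TILs held UMIs of Cd8a or Cd8b1 and none of Cd4, and were split by whether they held a UMI of Pdcd1, which encodes PD-1 (Pdcd1+, 3131 WT and 2261 VISTA-KO cells; Pdcd1-, 2418 and 2089). Conventional CD4+ TILs held Cd4 without Foxp3 (1768 and 3048), and regulatory TILs held Foxp3, the defining factor of regulatory T cells, with Cd4 (1528 and 1270). Cells with at least 2 UMIs of Siglech, a marker of plasmacytoid dendritic cells, formed the fifth kind (221 and 138). The summed level of 6 T cell markers was 5250 to 6265 CPM in the T cell kinds, and 1715 CPM (WT) and 840.3 CPM (VISTA-KO) in the Siglech+ cells. The 9 plasmacytoid dendritic markers summed to 12762 and 14580 CPM in the Siglech+ cells. Between 0.177% and 6.05% of a T cell kind also counted as Siglech+. Most Siglech+ cells, however, also counted in a T cell kind, so the fifth kind is not separate from the others. Of the 221 WT Siglech+ cells, 6 were also Pdcd1+ CD8+, 61 Pdcd1- CD8+, 107 conventional CD4+ and 37 regulatory TILs. Of the 138 in VISTA-KO, these were 4, 45, 65 and 10.

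The promoters are shown first because members that are switched on by Hsf1 carry inverted GAA units, the heat shock element. A promoter, from 250 bases before to 50 bases after an annotated start of transcription, was found for 7 of the 10 members in RefSeq (build GRCm38.p6), and none for Hspa8, Hsp90aa1 and Hsp90ab1. Each window was searched for a pair of units, GAANNTTC or TTCNNGAA, which read the same on both strands. Of the 7 members, 6 held a pair at 1 or more of their starts, against 17.0% of all 27025 genes with a promoter (15.1% of 32851 promoters). Hspe1 and Hsph1 held 3 units in a row, which 0.662% of genes (0.603% of promoters) did. Dnajb1, at both of its starts, held no pair in this window. A match is a description of letters and not of binding. Below are the 160 bases before an annotated start site for 6 members, 5′ to 3′ on the strand of the gene, with each pair in capitals.
Hspa1a (chr17:34972157-34972316, minus strand): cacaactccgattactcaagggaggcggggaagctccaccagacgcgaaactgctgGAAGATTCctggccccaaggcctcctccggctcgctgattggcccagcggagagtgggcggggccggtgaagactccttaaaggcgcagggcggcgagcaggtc
Hspa1b (chr17:34959239-34959398, minus strand): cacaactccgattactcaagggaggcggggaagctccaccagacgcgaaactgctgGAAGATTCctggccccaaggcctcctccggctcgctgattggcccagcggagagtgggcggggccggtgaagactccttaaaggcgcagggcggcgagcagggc
Hspe1 (chr1:55087988-55088147, plus strand): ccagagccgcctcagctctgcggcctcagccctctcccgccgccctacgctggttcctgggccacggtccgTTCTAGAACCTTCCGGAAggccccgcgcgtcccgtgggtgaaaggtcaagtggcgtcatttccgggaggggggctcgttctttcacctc
Hsph1 (chr5:149636337-149636496, minus strand): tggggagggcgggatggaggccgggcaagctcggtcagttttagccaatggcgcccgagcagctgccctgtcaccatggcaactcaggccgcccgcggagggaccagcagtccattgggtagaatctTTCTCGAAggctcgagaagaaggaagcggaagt
Hspb1 (chr5:135887759-135887918, plus strand): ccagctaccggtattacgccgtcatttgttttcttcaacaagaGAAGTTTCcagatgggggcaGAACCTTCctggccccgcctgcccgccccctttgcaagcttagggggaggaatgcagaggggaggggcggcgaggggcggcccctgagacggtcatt
Dnaja1 (chr4:40722308-40722467, plus strand): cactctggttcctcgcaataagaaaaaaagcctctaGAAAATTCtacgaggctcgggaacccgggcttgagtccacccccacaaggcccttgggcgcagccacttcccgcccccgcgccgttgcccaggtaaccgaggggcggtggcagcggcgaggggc

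Hspa1a and Hspa1b are neighbours on chromosome 17, and their promoters were the same at 296 of 300 bases (98.7%). Their single pair started at base -104, counted back from the start site, in both. The first 50 transcribed bases were the same at 49 positions. Reads from such a pair of near copies can be assigned to either gene or dropped, so the split of UMIs between Hspa1a and Hspa1b is uncertain, and their sum is given for single cells. In Hspe1, the pairs at -89, -84 and -79 shared units and formed an unbroken run. Hspb1 held separate pairs at -117 and -97, and Dnaja1 held a pair at -124 before 1 of its 3 starts. In Hsph1 a pair stood at -33 from the start shown, and the 3 units in a row lay after that start, from 37. Counted from the other annotated start of Hsph1, these positions were -54 and 16. The bases shown for Hsph1 lie inside the annotated span of the gene, which reaches to base 149636498.

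**Figure D1:**
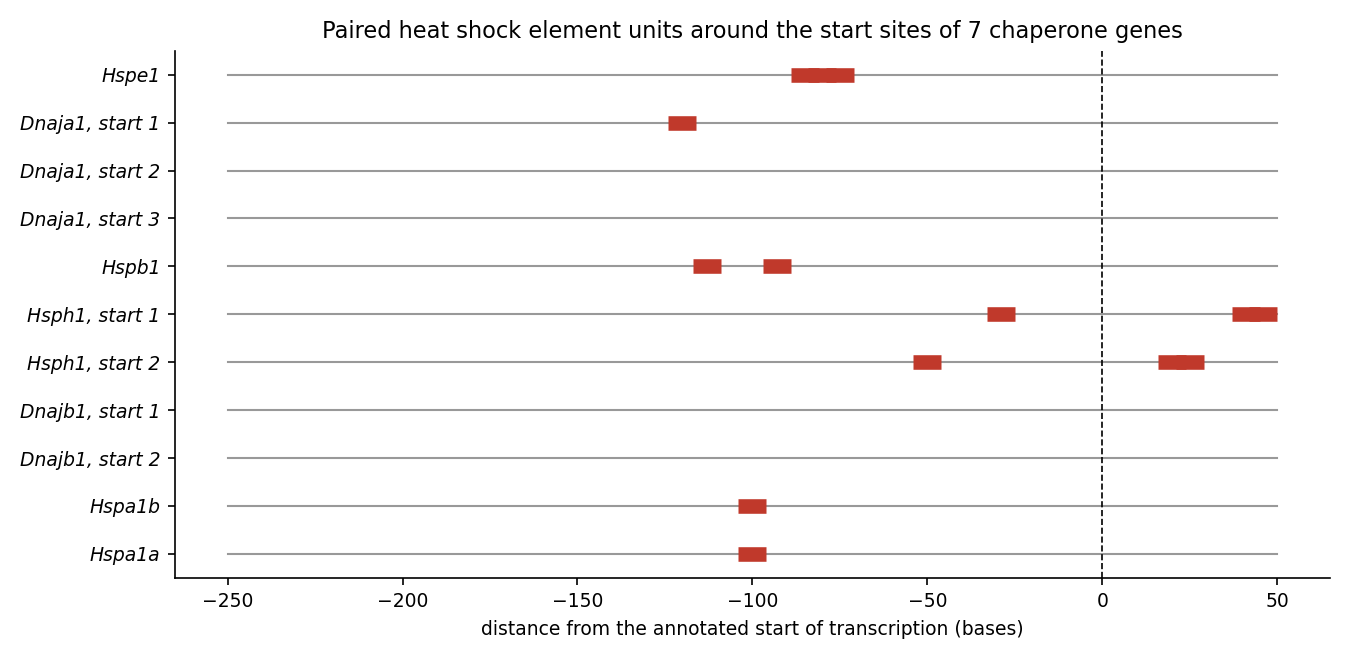
Positions of paired heat shock element units (red boxes) in promoter windows of 7 chaperone genes, on an axis of bases from each annotated start of transcription (dashed line). Grey lines are the windows of 300 bases, and genes with several annotated starts have a line each. Hspa1a and Hspa1b share a pair at -104, Hspe1 has 3 overlapping pairs from -89, and Dnajb1 has none.

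The inducible Hsp70 genes Hspa1a and Hspa1b were lower in the library labelled VISTA-KO in all 5 kinds of cells. Among members at 20 CPM or more, theirs were the largest differences in every kind but the Pdcd1+ CD8+ TILs. In conventional CD4+ TILs, Hspa1a stood at 292 CPM (282 to 302) in WT against 204 CPM (197 to 211) in VISTA-KO, giving a ratio of 0.700 (0.666 to 0.735). In regulatory TILs it was 174 CPM against 120.2 CPM, giving a ratio of 0.690 (0.645 to 0.739). Regulatory TILs were deeper in WT than in VISTA-KO (medians of 8838 and 5939 UMIs). With cells thinned to equal depth, Hspa1a had a mean of 0.384 UMIs per regulatory cell in WT against 0.257 in VISTA-KO. The part of depth in which cells counted as regulatory was not tested. In Pdcd1- CD8+ TILs Hspa1a was 159 CPM (151 to 166) against 105 CPM (98.7 to 111), giving a ratio of 0.661 (0.612 to 0.712). The gap was narrowest in Pdcd1+ CD8+ TILs, where Hspa1a was 137 CPM (133 to 142) for WT and 123 CPM (118 to 128) for VISTA-KO. That ratio was 0.898 (0.851 to 0.947). Siglech+ cells had 102 CPM (90.3 to 115) against 30.8 CPM (22.3 to 41.3), from 262 and 44 UMIs. T cell markers in those cells summed to 1715 CPM in WT against 840.3 CPM in VISTA-KO. Genes of dividing cells summed to 277 CPM against 144 CPM there, and the part of both in this gap was not tested.

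Hspa1b gave the same picture from its own UMIs, within the limit that the pair shares sequence. Its level in conventional CD4+ TILs was 253 CPM in WT against 169 CPM in VISTA-KO, giving a ratio of 0.668 (0.633 to 0.705). The ratios were 0.754 (0.708 to 0.801) in Pdcd1+ CD8+ TILs, 0.626 (0.575 to 0.681) in Pdcd1- CD8+ TILs, 0.671 (0.623 to 0.723) in regulatory TILs and 0.458 (0.334 to 0.618) in Siglech+ cells. Every one of these 10 ratios had an interval below 1. For counts of differences, a log2 ratio of (CPM + 5) of at least 0.5 in size was called past the fold, among genes with 20 CPM in 1 of the libraries. Hspa1a and Hspa1b passed it in Pdcd1- CD8+ TILs (-0.58 and -0.65), where 2.36% of 6144 genes did in either direction. They also passed in conventional CD4+ TILs (-0.51 and -0.57, background 4.25%), in regulatory TILs (-0.52 and -0.55, background 5.33%) and in Siglech+ cells (-1.59 and -1.03, background 9.04%). In Pdcd1+ CD8+ TILs 0 of the 10 chaperones counted as past it (Hspa1a -0.15, Hspa1b -0.39), and 2.36% of 6050 genes did. No other member above the level limit passed the fold between the libraries in any of the 5 kinds. Several of these values lie close to the threshold. With CD8+ TILs split by Pdcd1 after thinning to equal depth, the Pdcd1- values were -0.28 for Hspa1a and -0.48 for Hspa1b, and without likely doublets the Siglech+ value for Hspa1b was -0.41.

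**Figure D2:**
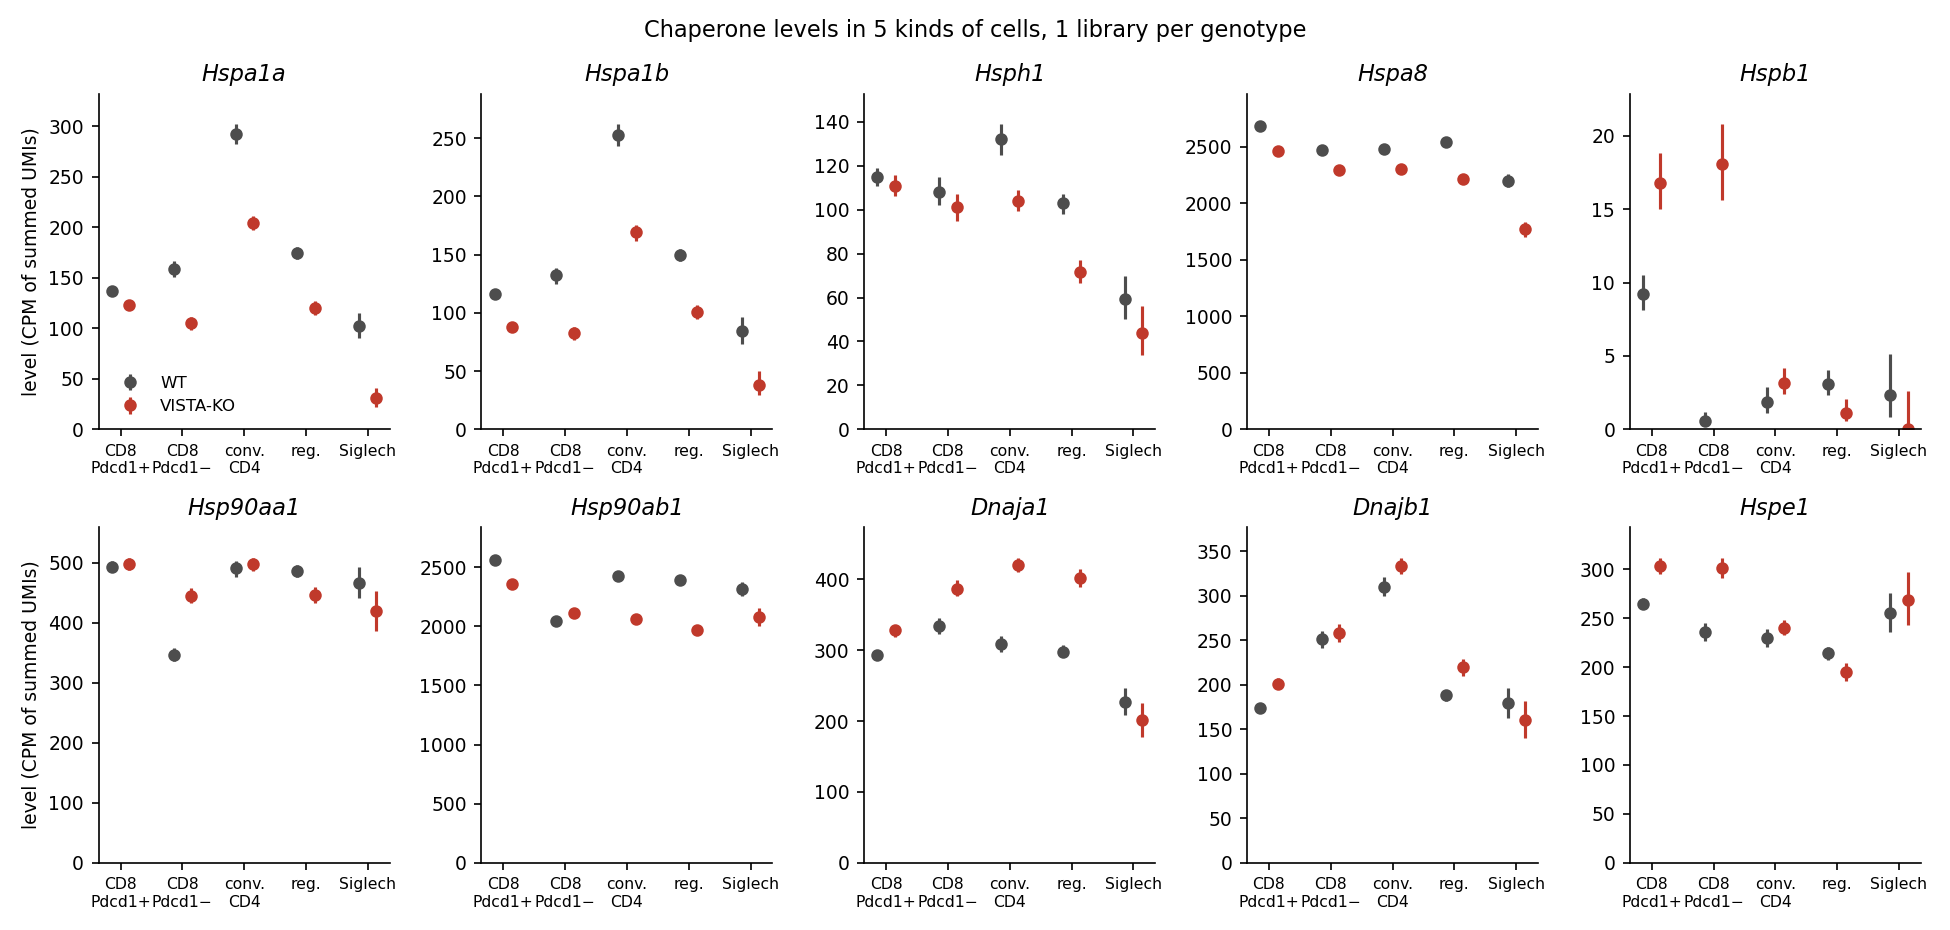
Level of each chaperone (CPM of summed UMIs, each panel with its own axis from 0) in 5 kinds of cells, for the WT and the VISTA-KO library. Points are 1 library each and bars are exact 95% Poisson intervals for counting error. Hspa1a and Hspa1b are highest in conventional CD4+ TILs in both libraries and lower in VISTA-KO in every kind.

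The other members differed by less and not in 1 direction. Hspa8, the constitutive Hsp70 of the cytosol, was lower in VISTA-KO in all 5 kinds, by little. It stood at 2679 CPM in WT against 2462 CPM in VISTA-KO in Pdcd1+ CD8+ TILs, giving a ratio of 0.919 (0.908 to 0.930). Its ratios were 0.930 in Pdcd1- CD8+ TILs, 0.929 in conventional CD4+ TILs, 0.874 in regulatory TILs and 0.803 (0.766 to 0.842) in Siglech+ cells. All 5 intervals lay below 1, although the differences were small beside those of the inducible pair. Of all genes tested, 51.8% to 61.0% had a log2 ratio below 0 in these kinds. Between 12.5% and 31.6% had a lower one than Hspa8.

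Of the Hsp90 genes, the constitutive Hsp90ab1 was lower in 4 kinds and higher in 1. It was 2427 CPM in WT against 2064 CPM in VISTA-KO in conventional CD4+ TILs, and 2391 CPM against 1965 CPM in regulatory TILs (ratios 0.850 and 0.822). In Pdcd1- CD8+ TILs it was 2044 CPM against 2111 CPM, giving a ratio of 1.03 (1.01 to 1.05). The stress-inducible Hsp90aa1 differed mainly in the Pdcd1- CD8+ TILs, with 347 CPM (336 to 358) in WT against 445 CPM (433 to 458) in VISTA-KO. That ratio was 1.28 (1.23 to 1.34). In Pdcd1+ CD8+ and conventional CD4+ TILs its ratio was 1.01 in both, with intervals that held 1, and in regulatory TILs it was 0.917 (0.884 to 0.952).

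In the T cell kinds the J-protein genes lay on the other side of 1 from the inducible Hsp70 genes. Dnaja1, a J-protein anchored by a lipid tail, was higher in VISTA-KO in all 4 T cell kinds. It stood at 309 CPM (298 to 319.6) in WT against 421 CPM (411 to 431) in VISTA-KO in conventional CD4+ TILs, giving a ratio of 1.36 (1.31 to 1.42). In regulatory TILs it was 298 CPM against 402 CPM, giving a ratio of 1.35 (1.29 to 1.40). The CD8+ TILs showed smaller ratios, 1.12 (1.08 to 1.16) for Pdcd1+ and 1.16 (1.11 to 1.21) for Pdcd1-. In Siglech+ cells Dnaja1 was 227 CPM in WT against 201 CPM in VISTA-KO, giving a ratio of 0.883 (0.764 to 1.02). Dnajb1, the J-protein induced by heat shock together with Hspa1a, had ratios of 1.15, 1.03, 1.08 and 1.17 in the T cell kinds in the order of the plot. The interval for Pdcd1- CD8+ TILs (0.975 to 1.08) held 1. Dnajb1 was therefore not lower in the T cell kinds, where Hspa1a and Hspa1b were, and its ratio in Siglech+ cells was 0.893 (0.759 to 1.05).

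Hsph1 encodes the Hsp110 protein that exchanges nucleotide on Hsp70. It was 132 CPM in WT against 104 CPM in VISTA-KO in conventional CD4+ TILs and 103 CPM against 71.6 CPM in regulatory TILs. Those ratios were 0.789 (0.735 to 0.847) and 0.699 (0.639 to 0.763), and the intervals for both CD8+ kinds and the Siglech+ cells reached 1. Hspe1, the mitochondrial Hsp10 that caps the Hsp60 chamber, was 265 CPM against 303 CPM in Pdcd1+ CD8+ TILs and 236 CPM against 301 CPM in Pdcd1- CD8+ TILs (ratios 1.15 and 1.28). In regulatory TILs it was 214 CPM against 195 CPM, giving a ratio of 0.911 (0.862 to 0.963). So Hspe1 was higher in VISTA-KO in the CD8+ kinds and lower in the regulatory kind.

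**Figure D3:**
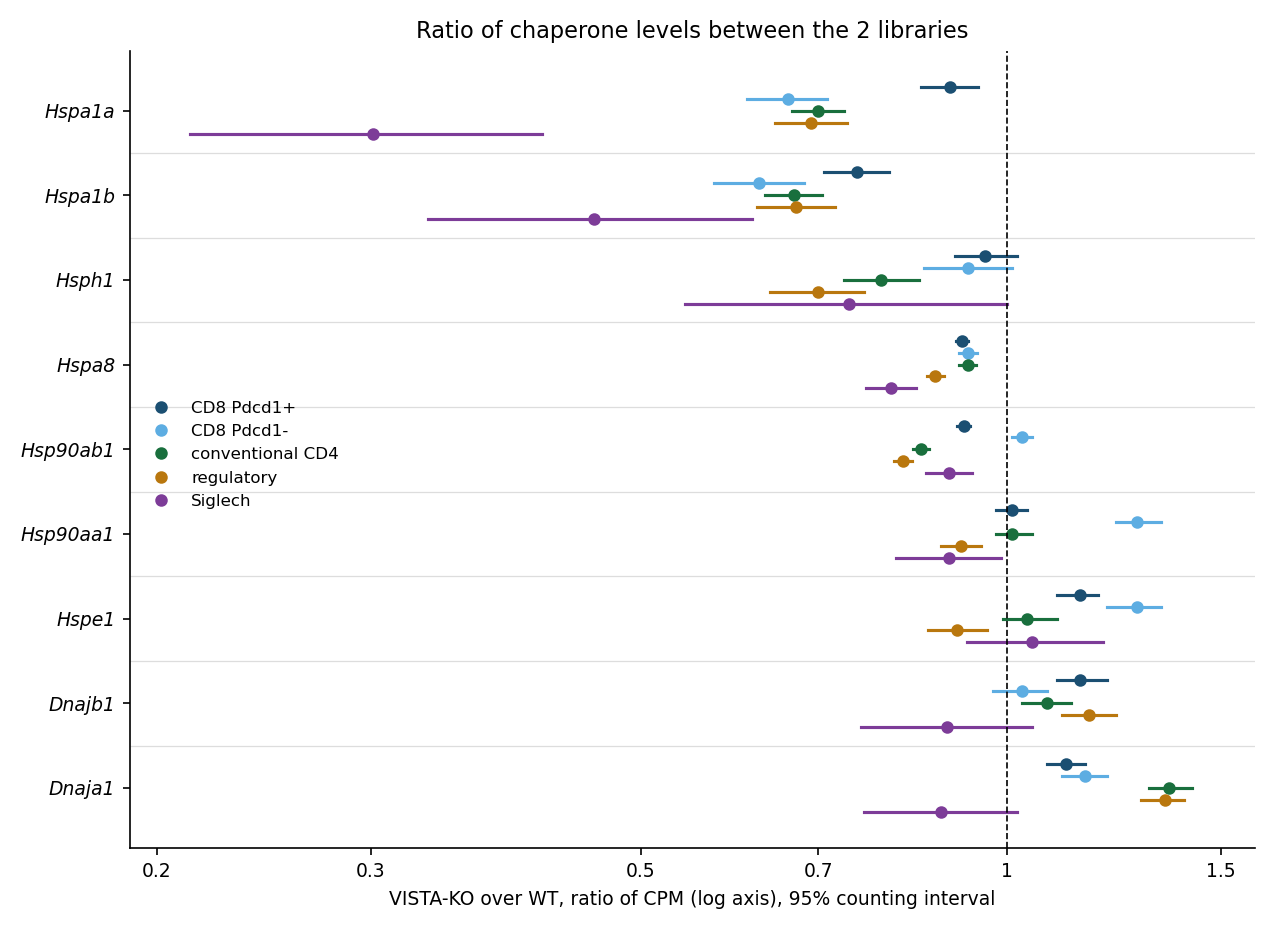
Ratio of CPM, VISTA-KO over WT, for 9 chaperones (rows) in 5 kinds of cells (colors), on a log axis with exact 95% counting intervals. Hspb1 is left out because it stayed under 20 CPM everywhere. The intervals of Hspa1a, Hspa1b and Hspa8 lie below 1 in every kind, and those of Dnaja1 lie above 1 in the 4 T cell kinds.

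Over all 10 members, the median log2 ratio was -0.0228 in Pdcd1+ CD8+ TILs, 0.0429 in Pdcd1- CD8+ TILs, -0.0431 in conventional CD4+ TILs, -0.24 in regulatory TILs and -0.25 in Siglech+ cells. The medians over all genes tested were -0.0203, -0.0312, -0.0402, -0.0074 and -0.0232. Genes tested had 20 CPM or more in 1 library, which Hspb1 did not. Over the 9 members that did, the medians were -0.0564, 0.0395, -0.11, -0.19 and -0.18. The family median lay below that of all genes in regulatory TILs and Siglech+ cells with or without Hspb1. In conventional CD4+ TILs it was near that of all genes with Hspb1 and lower without it. Regulatory TILs also differed in depth between the libraries (medians of 8838 UMIs in WT and 5939 in VISTA-KO). The part of depth in their median log2 ratio was not tested. The summed level of the 10 members was 6846 CPM in WT against 6492 CPM in VISTA-KO in Pdcd1+ CD8+ TILs, and 6544 against 5738 CPM in regulatory TILs. Most of those UMIs came from Hspa8 and Hsp90ab1.

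Markers of other cells differed between the libraries as well. The summed level of 6 melanoma genes was 7.66 CPM in WT against 116 CPM in VISTA-KO in Pdcd1+ CD8+ TILs, 21.9 and 349 CPM in Pdcd1- CD8+ TILs, 217 and 17.0 CPM in conventional CD4+ TILs, and 8.09 and 198 CPM in regulatory TILs. Of 7 macrophage genes, the sum ranged from 89.4 to 248 CPM over the T cell kinds of both libraries, and 3 fibroblast genes summed to at most 1.25 CPM. The 9 plasmacytoid dendritic genes summed to 1938 CPM in WT against 1031 CPM in VISTA-KO in conventional CD4+ TILs, where 8 of the 9 were past the fold downward. With the Siglech+ cells taken out of the T cell kinds, Hspa1a and Hspa1b were still lower in VISTA-KO in conventional CD4+ TILs. The part of plasmacytoid dendritic genes in the remaining cells was not tested. A list of 10 genes of dividing cells summed to 1108 CPM in WT against 627 CPM in VISTA-KO in regulatory TILs. Without cells holding 5 or more melanoma and macrophage UMIs, the log2 ratio of Hspa1a was -0.16 in Pdcd1+ CD8+ TILs, -0.63 in Pdcd1- CD8+ TILs, -0.55 in conventional CD4+ TILs and -0.49 in regulatory TILs. Without cells holding a UMI of Mki67 or Top2a, genes of dividing cells, it was -0.27, -0.48, -0.59 and -0.71. Hspa1a was thus lower in VISTA-KO with or without those cells.

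Hspa1a also differed between T cell clones. The largest clonotype of the WT library, cells that share 1 receptor, held 1063 cells, and its Hspa1a level was 68.7 CPM (61.7 to 76.2). The second largest WT clonotype (323 cells) had 294 CPM (272 to 318), and the other CD8+ TILs with a clonotype (2807 cells) had 134 CPM (129 to 139.9). In the library labelled VISTA-KO, Hspa1a was 188 CPM (170.2 to 206) in the largest clonotype (292 cells), 102 CPM in the second (150 cells) and 94.2 CPM (89.9 to 98.7) in the others (3021 cells). The largest clonotype was low for Hspa1a in WT and high in VISTA-KO. With both of these largest clonotypes left out, the log2 ratio in Pdcd1+ CD8+ TILs was -0.40 for Hspa1a and -0.59 for Hspa1b. The large WT clonotype was also low for Hsp90ab1 (1560 CPM against 2551 CPM in the other clonotypes), Hsp90aa1 (271 against 449.5 CPM) and Hspe1 (159 against 281 CPM).

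The next question was how the chaperones differed between kinds of cells within a library. Conventional CD4+ TILs had the highest Hspa1a, Hspa1b and Dnajb1 levels in both libraries, and Siglech+ cells the lowest Hspa1a, Hspa1b, Hspa8, Hsph1 and Dnaja1. In WT the order for Hspa1a was conventional CD4+, regulatory, Pdcd1- CD8+, Pdcd1+ CD8+ and Siglech+, and the ratio interval of each neighbouring pair excluded 1. In VISTA-KO, Pdcd1+ CD8+ TILs (123 CPM) came second and regulatory TILs (120.2 CPM) next, and those neighbours were not apart. Conventional CD4+ over Pdcd1- CD8+ TILs, the Hspa1a ratio was 1.84 (1.74 to 1.95) in WT against 1.95 (1.82 to 2.09) in VISTA-KO. For Hspa8 that ratio was 1.00 in both libraries, with intervals of 0.986 to 1.02 and 0.985 to 1.02. The inducible gene thus differed between these kinds where the constitutive one did not detectably differ.

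Hspa1a, Hspa1b, Dnajb1, Hsph1 and Hspe1 were lower in regulatory than in conventional CD4+ TILs, with intervals below 1 in both libraries. Regulatory TILs were deeper than conventional ones (medians of 8838 and 4106 UMIs in WT, 5939 and 4224 in VISTA-KO). A shallow cell can miss its Foxp3 UMI and so count as conventional. The ratio for Hspa1a was 0.596 (0.567 to 0.627) in WT against 0.588 (0.550 to 0.629) in VISTA-KO, and for Hspa1b 0.593 and 0.596. For Dnajb1 it was 0.606 (310.1 CPM in conventional and 188 CPM in regulatory TILs) in WT against 0.657 (334 and 219.6 CPM) in VISTA-KO. Hsph1 had ratios of 0.776 and 0.687, and the mitochondrial Hspe1 of 0.930 (0.884 to 0.979) and 0.811 (0.767 to 0.858). In WT, 3 members were past the fold, all lower (Hspa1a, Hspa1b and Dnajb1), against 10.5% of all genes in either direction. In VISTA-KO, 4 were past it, all lower (the same 3 and Hsph1 at -0.51), against 11.1%. Hspa8 (1.02 and 0.964), Dnaja1 (0.966 and 0.955) and Hsp90ab1 (0.985 and 0.952) differed little. The stress-inducible Hsp90aa1 was at 0.993 (0.960 to 1.03) in WT against 0.898 (0.865 to 0.932) in VISTA-KO, and the rare Hspb1 at 1.68 (0.992 to 2.94) and 0.360 (0.169 to 0.699). The median over the 10 members was -0.0753 in WT against -0.35 in VISTA-KO. Over the 9 members at 20 CPM or more it was -0.10 and -0.29, against -0.0133 and 0.012 over all genes at that level. The summed level of 20 immediate-early genes, which tissue digestion can also raise, was 10615 CPM in conventional and 7873 CPM in regulatory TILs of WT, and 15969 and 13625 CPM in those of VISTA-KO. Plasmacytoid dendritic genes summed to 1938 and 684 CPM in the same kinds of WT and to 1031 and 610.5 CPM in VISTA-KO. With the Siglech+ cells taken out of the T cell kinds, the median of each library stayed between the medians of the members' lower and upper bounds. The part of these genes in the chaperone levels was otherwise not tested.

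Among members at 20 CPM or more, Pdcd1+ and Pdcd1- CD8+ TILs of WT differed most in Hsp90aa1 and Dnajb1. In WT, Hsp90aa1 was 494 CPM (486 to 503) in Pdcd1+ and 347 CPM (336 to 358) in Pdcd1- cells, giving a ratio of 1.43 (1.38 to 1.48). Dnajb1 was 174 CPM against 251 CPM, giving a ratio of 0.696 (0.664 to 0.729). These were the 1 higher and the 1 lower member past the fold in WT, where 13.8% of genes passed. In VISTA-KO both ratios were nearer to 1, at 1.12 (1.08 to 1.16) for Hsp90aa1 and 0.781 (0.743 to 0.821) for Dnajb1, and 0 members passed, against 12.8% of genes. Hsp90ab1 had ratios of 1.25 and 1.12 and Dnaja1 of 0.879 and 0.846. Hspa1a had ratios of 0.864 (0.816 to 0.915) in WT against 1.17 (1.09 to 1.26) in VISTA-KO, on opposite sides of 1. Pdcd1+ cells held more UMIs than Pdcd1- cells (medians of 5880 and 4093 in WT, 6300 and 4556 in VISTA-KO), and a shallow cell can miss its Pdcd1 UMI. With cells split after thinning to equal depth, the median over the 10 members moved from 0.10 to 0.0199 in WT and from 0.0914 to -0.13 in VISTA-KO. That split moved the VISTA-KO over WT log2 ratio of Hspa1a in Pdcd1- cells from -0.58 to -0.28. Leaving out the largest clonotypes moved it in Pdcd1+ cells from -0.15 to -0.40. Whether the Hspa1a ratios of Pdcd1+ over Pdcd1- stay on opposite sides of 1 under these alternatives was not tested. Genes of dividing cells summed to 1206 CPM in Pdcd1+ and 283 CPM in Pdcd1- cells of WT (1503 and 402 CPM in VISTA-KO), and plasmacytoid dendritic genes to 441 and 1098 CPM (459 and 927 CPM in VISTA-KO). Without cells holding a UMI of Mki67 or Top2a, the WT median was 0.017. With the Siglech+ cells taken out of the T cell kinds, the median of each library stayed between the medians of the members' lower and upper bounds. The part of plasmacytoid dendritic genes in the remaining cells was not tested.

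Levels per kind hide how few cells carried the inducible transcripts. Each cell was therefore thinned at random to 2000 UMIs, and 643 WT and 538 VISTA-KO cells with fewer were left out. In conventional CD4+ TILs, 32.9% (30.6 to 35.2) of WT cells against 20.3% (18.8 to 21.8) of VISTA-KO cells held a UMI of Hspa1a or Hspa1b. The shares were 17.5% and 11.5% in Pdcd1+ CD8+ TILs, 17.3% and 11.3% in Pdcd1- CD8+ TILs, 24.3% and 14.5% in regulatory TILs and 18.2% and 5.84% in Siglech+ cells. Without thinning they were 40.5% and 26.7% in conventional CD4+ TILs and 27.2% and 16.5% in Pdcd1+ CD8+ TILs. Every kind had the lower share in VISTA-KO at each depth tried. No kind of cell here is known to lack these genes, so no background share from free RNA could be set beside them. By contrast, Hspa8 was found in 97.9% of WT and 97.3% of VISTA-KO Pdcd1+ CD8+ TILs.

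Among cells with an Hspa1a or Hspa1b UMI, the mean UMIs per cell were not lower in VISTA-KO in 3 of the 4 T cell kinds. The mean was 3.17 in WT against 4.10 in VISTA-KO in Pdcd1+ CD8+ TILs, 3.42 and 3.47 in Pdcd1- CD8+ TILs, 4.30 and 4.26 in conventional CD4+ TILs and 3.00 and 3.39 in regulatory TILs. The lower level in VISTA-KO thus went with fewer positive cells more than with fewer UMIs in each. Cells with at least 10 such UMIs made up 0.991% (30 of 3027) of WT and 1.23% (27 of 2195) of VISTA-KO Pdcd1+ CD8+ TILs, with intervals of 0.670 to 1.41 and 0.812 to 1.78. In conventional CD4+ TILs they made up 3.67% (2.81 to 4.70) and 1.73% (1.29 to 2.27). So the cells with most Hsp70 UMIs were fewer in VISTA-KO among conventional CD4+ TILs, and no difference was detectable among Pdcd1+ CD8+ TILs. In Siglech+ cells 0 of 220 and 0 of 137 held 10, which allows shares of up to 1.66% and 2.66%.

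**Figure D4:**
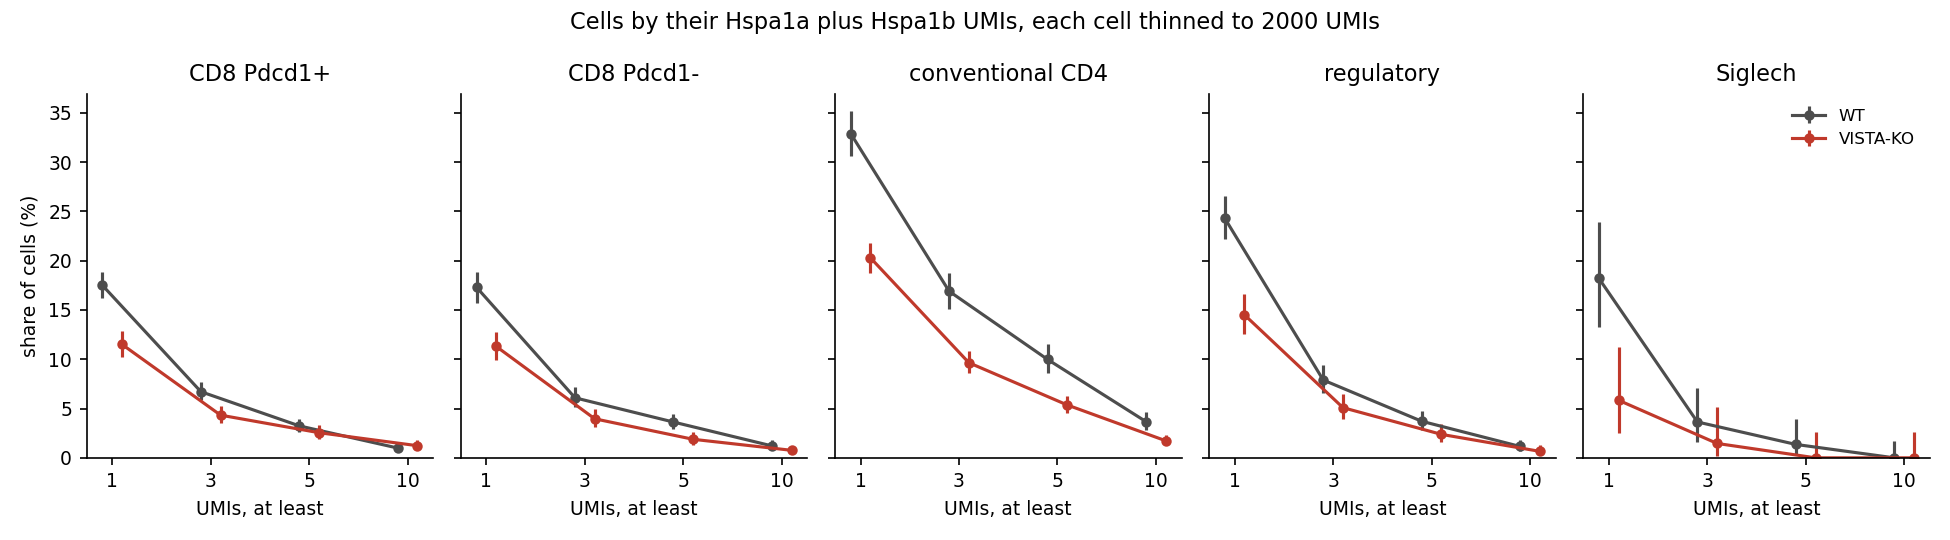
Share of cells (percent) with at least 1, 3, 5 or 10 UMIs of Hspa1a and Hspa1b together, after thinning each cell to 2000 UMIs, in 5 kinds of cells of each library. Bars are exact 95% Clopper-Pearson intervals. At 1 UMI or more, the share is lower in VISTA-KO in all 5 kinds, and at 10 or more the libraries overlap in Pdcd1+ CD8+ TILs.

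The UMIs of the inducible pair were packed into few cells, and more so in the library labelled VISTA-KO. In Pdcd1+ CD8+ TILs, 50% of the Hspa1a and Hspa1b UMIs lay in 2.87% of WT and in 1.32% of VISTA-KO cells. In conventional CD4+ TILs those shares were 5.81% and 2.91%. The Fano factor, the variance over the mean, is 1 for counts spread by chance alone. For the pair it was 6.94 in WT against 12.3 in VISTA-KO in Pdcd1+ CD8+ TILs, 9.32 and 12.4 in Pdcd1- CD8+ TILs, 7.87 and 12.2 in conventional CD4+ TILs and 8.76 and 18.5 in regulatory TILs. Hspa8 had factors of 1.91 to 2.67 over the T cell kinds, and VISTA-KO had the higher one in all but the regulatory kind. Dnaja1 had factors of 1.18 to 1.86, where the highest WT factor was 1.26 and the lowest VISTA-KO factor 1.57. Of 50 pairs of a member and a kind, 37 had the higher factor in VISTA-KO. Without thinning 26 of the 50 did. Higher factors in VISTA-KO were therefore not limited to the inducible pair. The richest single cells held 29 (WT) and 42 (VISTA-KO) UMIs of the pair in Pdcd1+ CD8+ TILs. In regulatory TILs they held 50 of 1083 UMIs (WT) and 86 of 600 (VISTA-KO). A single such cell can raise the factor, and factors without these cells were not computed.

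Cells rich in Hsp70 UMIs were rich in other chaperones too. TILs with at least 3 UMIs of Hspa1a and Hspa1b after thinning (62 to 279 cells per kind and library) were compared with cells of the same kind and library that held none. Because all cells were thinned to the same total, this is a comparison of shares within cells and not of depth. In Pdcd1+ CD8+ TILs, Dnajb1 was 1.36 UMIs per cell in the rich and 0.291 in the other WT cells, giving a ratio of 4.68 (4.06 to 5.39), and 2.47 against 0.311 in VISTA-KO, giving a ratio of 7.97 (6.82 to 9.28). Over the 4 T cell kinds the ratio for Dnajb1 was 4.18 to 4.84 in WT against 5.72 to 7.97 in VISTA-KO. Hsph1 followed with 3.61 to 4.68 and 4.67 to 7.78, and Hsp90aa1 with 2.66 to 3.23 and 3.72 to 4.99. The constitutive Hspa8 (1.52 to 1.64 and 1.57 to 2.07) and Hsp90ab1 (1.42 to 1.77 and 1.82 to 1.89) differed less.

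Dnaja1 had ratios of 1.39 to 1.77 in WT against 2.16 to 2.92 in VISTA-KO, and Hspe1 of 1.35 to 1.76 and 2.13 to 3.70. For Dnajb1, Hsp90aa1, Hsp90ab1, Dnaja1 and Hspe1 each VISTA-KO ratio lay above each WT ratio across the 4 kinds, a difference that was not tested. Genes outside the family served as a contrast. Hsp90b1, the Hsp90 of the endoplasmic reticulum, had ratios of 0.784 to 1.20 in WT against 0.889 to 1.14 in VISTA-KO, and Hspa5, its Hsp70, of 1.11 to 1.30 and 0.975 to 1.33. These ratios were nearer to 1 than those of the inducible chaperones. The interval of Hspa5 lay above 1 in both CD8+ kinds of WT and in Pdcd1- CD8+ TILs of VISTA-KO, and that of Hsp90b1 below 1 in WT regulatory TILs (0.627 to 0.971). The immediate-early factors Jun (3.32 to 4.74 in WT, 2.09 to 5.51 in VISTA-KO) and Fos (2.27 to 3.02 and 1.57 to 2.24) were richer in the cells with Hsp70 UMIs in all kinds. Nr4a1, another immediate-early gene and one that T cell receptor signals raise, had ratios on both sides of 1 (0.652 to 1.58 and 0.671 to 1.06). Its interval lay above 1 in WT Pdcd1- CD8+ TILs (1.22 to 2.01). It lay below 1 in regulatory TILs of WT (0.449 to 0.918) and of VISTA-KO (0.528 to 0.841), and in conventional CD4+ TILs of VISTA-KO (0.650 to 0.808).

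**Figure D5:**
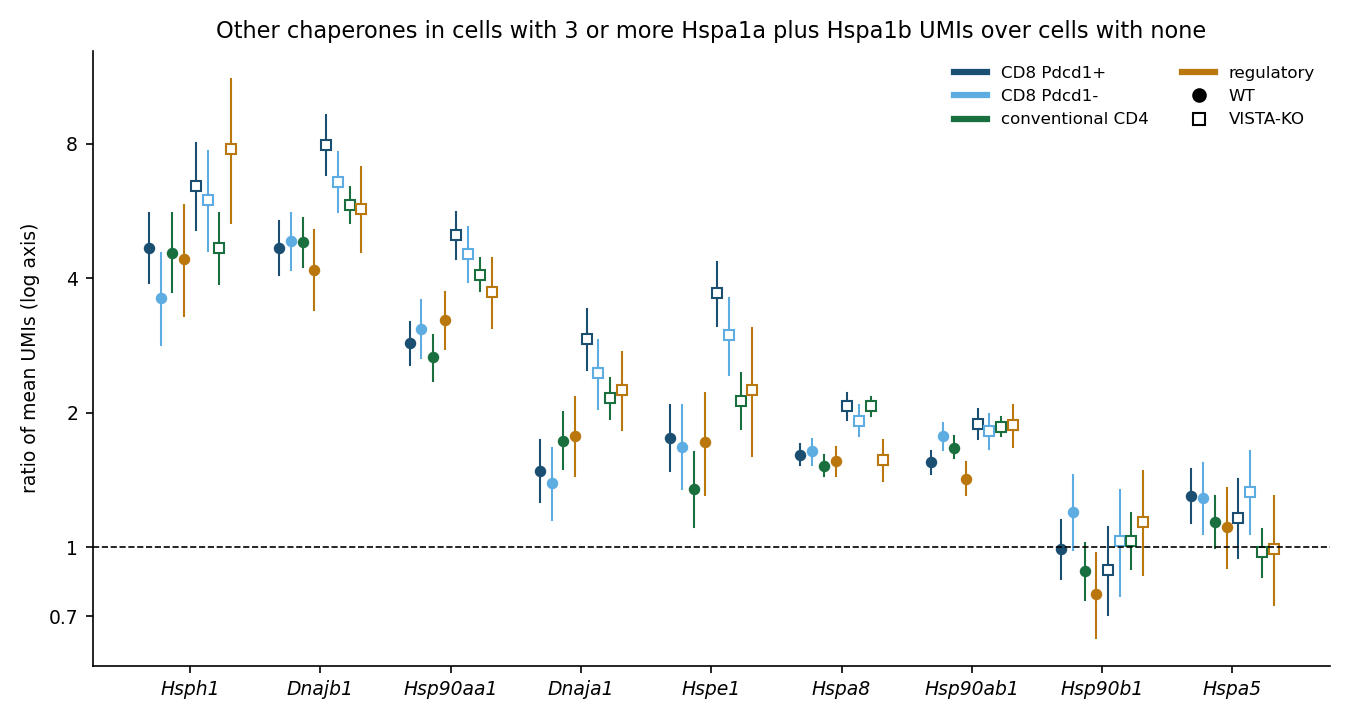
Ratio of mean UMIs per cell (log axis) between TILs with at least 3 Hspa1a and Hspa1b UMIs and TILs of the same kind and library with none, all thinned to 2000 UMIs. Filled circles are WT, open squares VISTA-KO, colors are kinds and bars exact 95% counting intervals. Dnajb1, Hsph1 and Hsp90aa1 are highest, and Hsp90b1 and Hspa5, chaperones of the endoplasmic reticulum, lie near 1.

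Across single cells the correlations were weak outside the neighbouring pair. Over the thinned Pdcd1+ CD8+ TILs (3027 WT and 2195 VISTA-KO cells), Pearson's r of log counts between Hspa1a and Hspa1b was 0.56 in WT against 0.64 in VISTA-KO. Between Hspa1a and Dnajb1 it was 0.27 and 0.33. All points of a value share 1 library, and the pair shares sequence, so these are descriptions. Of 7389 genes outside the family found in at least 2% of these cells, those whose counts followed the summed members most closely included Jun (mean r 0.22), Hspd1 (0.22), Rps2 (0.21), Ptma (0.20), Ppia (0.18), Pa2g4 (0.15), Npm1 (0.15), Mcm3 (0.15) and Mif (0.14). Hspd1 encodes Hsp60, the partner of Hspe1. Most UMIs of the summed members came from Hspa8 and Hsp90ab1, with means of 5.06 and 4.27 per thinned WT cell of this kind. Hspa1a and Hspa1b together had a mean of 0.555, so this list says little about the inducible pair.

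Hspb1, a small heat shock protein that holds unfolded clients without ATP, stayed apart from the others in its rarity. It was 9.23 CPM in WT against 16.8 CPM in VISTA-KO in Pdcd1+ CD8+ TILs and 0.536 and 18.1 CPM in Pdcd1- CD8+ TILs, from 6 and 192 UMIs. The Pdcd1- ratio of 33.7 (15.2 to 93.0) rested on 8 VISTA-KO cells, and 1 of them held 111 of the 192 UMIs. Without that cell the VISTA-KO level was 7.62 CPM. In Pdcd1+ CD8+ TILs, 48 WT and 26 VISTA-KO cells held Hspb1, and 3 cells carried 53.3% and 68.2% of the UMIs. Those cells also had more of the inducible pair, with 1002 CPM against 233 CPM in WT against 2479 CPM against 177 CPM in VISTA-KO. The 48 WT cells also had more macrophage transcripts (299.7 against 162 CPM) and more Arg1 (139 against 0.0783 CPM), whereas the 26 VISTA-KO cells had 139.7 against 134 CPM of macrophage transcripts and Arg1 at 0. Their part in the Hspb1 level was not tested. In Siglech+ cells Hspb1 had 6 UMIs in WT against 0 in VISTA-KO, where the limit that 0 counts allow is 2.10 CPM.

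Hspb1 also varied between clonotypes. It stood at 83.7 CPM (190 UMIs) in the largest and at 36.7 CPM (50 UMIs) in the second largest clonotype of VISTA-KO, against 5.77 CPM in the other clonotypes. The largest WT clonotype held 1 UMI. In regulatory TILs it was 3.11 CPM in WT against 1.14 CPM in VISTA-KO, and in conventional CD4+ TILs 1.86 and 3.18 CPM, from 11 to 57 UMIs. Levels this low, with most UMIs in a handful of cells, describe those cells rather than the kind.

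The wider chaperone network was read from lists written by gene name. Of 33 co-chaperones and other cytosolic chaperones, 24 to 26 reached 20 CPM in a T cell kind. Of these, 0 were past the fold upward in VISTA-KO and 1, 1, 3 and 1 were past it downward in Pdcd1+ CD8+, Pdcd1- CD8+, conventional CD4+ and regulatory TILs. Of all genes, 1.09%, 0.798%, 2.75% and 2.50% were past the fold downward in these kinds. A single call in a list of 24 to 26 says little beside such shares. The 3 of 26 in conventional CD4+ TILs lay above the share there, a difference that was not tested. The downward gene in all 4 was Tsc22d3, a target of glucocorticoids that stood on this list and is not itself a chaperone. It was 268 CPM in WT against 149 CPM in VISTA-KO in Pdcd1+ CD8+ TILs and 464 and 238 CPM in conventional CD4+ TILs. In conventional CD4+ TILs the others were Bag3 (34.0 and 21.8 CPM), an exchange factor of Hsp70, and Dnajc7 (224 and 148 CPM), a J-protein that shuttles clients between Hsp70 and Hsp90.

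Past the fold in each T cell kind stood 0 of 8 mitochondrial chaperones and proteases. Of the subunits of the chaperonin TRiC and of prefoldin, 0 of 14 did. Of the chaperones of the endoplasmic reticulum 0 of 19 did, and of the list of heat shock factors and binding proteins 0 of 2. With 2.36% to 5.33% of all genes past the fold in these kinds, counts of 0 in lists of this size are near the background. Of the immediate-early genes, 4 of 18, 7 of 19, 8 of 18 and 11 of 18 were past the fold upward in VISTA-KO in the same order of kinds, against 1.27% to 2.83% of all genes upward. In conventional CD4+ TILs 1 was past it downward (Myc, 66.8 CPM in WT against 45.6 CPM in VISTA-KO). Nr4a1 was 114 CPM in WT against 283 CPM in VISTA-KO in Pdcd1+ CD8+ TILs and 176 and 769.8 CPM in conventional CD4+ TILs. Of the genes of oxidative and proteotoxic stress, 2 of 8 were past the fold upward in each T cell kind (2 of 7 in regulatory TILs), Osgin1 and Gadd45b in Pdcd1+ CD8+ and conventional CD4+ TILs, Hmox1 and Gadd45b in Pdcd1- CD8+ TILs, and Gadd45b and Ppp1r15a in regulatory TILs.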

How the data were processed

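Sorted CD4+ and CD8+ TILs of both genotypes were run on 10x Genomics droplets, 1 gene expression and 1 receptor library each. The methods name the 5′ V(D)J kit and the labels a 3′ protocol, and the values do not settle which. The authors made the deposited UMI counts per gene and cell with Cell Ranger 5.0.0, and their notes also name Seurat 4. Cells with at least 600 genes and at most 30% mitochondrial UMIs were kept: 10224 of 10337 WT barcodes (72016854 UMIs) and 9946 of 10085 VISTA-KO barcodes (59817786 UMIs). UMIs were summed per library and kind, divided by the kind's total (CPM) and compared as log2 ratios of (CPM + 5). Level and ratio intervals are exact Poisson and conditional binomial intervals, shares have Clopper-Pearson intervals, all at 95%, and the limit for 0 was 3 counts, or the Clopper-Pearson bound for a share of cells. The fold threshold was a log2 ratio of 0.5 at 20 CPM or more. Correlations used log(1 + count) after thinning to 2000 UMIs.

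Doublets were kept. Scrublet's own threshold called 1 WT and 0 VISTA-KO cells, so an alternative left out cells above percentile 92 of its score or with 2 receptor beta chains (1047 and 1140 cells). Other alternatives changed pseudocount, scaling, level limit, cell filters, kind definitions and thinning depth. All 10 members were named between the libraries and between regulatory and conventional CD4+ TILs. Between Pdcd1+ and Pdcd1- CD8+ TILs, ratios are given for Hsp90aa1, Dnajb1, Hsp90ab1, Dnaja1 and Hspa1a only. Those of Hspa1b, Hspb1, Hsph1, Hspa8 and Hspe1 are left out there, although all 10 enter the medians. Other comparisons name some of them. Of the other lists, genes past the fold were eligible, at most 5 per direction, list and comparison, as were the 10 genes outside the family most correlated with it, of which 1 is not reported here. The members and lists were chosen with earlier results of these data known. Calculations, tested on simulated data, used Python 3.11.15, numpy 2.4.6, scipy 1.17.1, pandas 2.3.3, scanpy 1.11.5 and matplotlib 3.10.9. Promoters came from RefSeq tables of GRCm38.p6.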

Additional observations from a re-analysis of the deposited data

Results flagged for a closer look

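For 6 members the ratio lay above 1 in 1 group and below 1 in another, with both counting intervals clear of 1. With 1 library per genotype these differences were not tested. The share of all genes that meet this rule was not computed, so the count of 6 is not a result about this family. Pdcd1+ over Pdcd1- CD8+ TILs, Hspa1a had a ratio of 0.864 in WT and 1.17 in VISTA-KO. Whether this holds with the Pdcd1 split after thinning or without the largest clonotypes was not tested. Regulatory over conventional CD4+ TILs, the ratio of Hspa8 was 1.02 in WT and 0.964 in VISTA-KO, a small step between deeply counted values.

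VISTA-KO over WT, 4 members were higher in Pdcd1- CD8+ TILs and lower in another kind. Hsp90aa1 had ratios of 1.28 in Pdcd1- CD8+ TILs and 0.896 in Siglech+ cells. Hsp90ab1 was at 1.03 in Pdcd1- CD8+ TILs and 0.822 in regulatory TILs, and Hspe1 at 1.28 and 0.911 in the same kinds. Hspb1 had ratios of 33.7 and 0.367 there, from 192 against 6 UMIs and 11 against 57 UMIs, and 1 cell held 111 of the 192.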

How the results depend on the processing

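Hspa1a, Hspa1b, Hspa8 and Dnaja1 kept the sign of their VISTA-KO over WT difference in all 72 values each over 15 alternatives, and the 10 members together in 700 of 720. Of 130 medians over the members, 115 stayed within their counting interval. The median in Pdcd1+ CD8+ TILs (-0.0228) was 0.0545 as a mean of single-cell CPM, -0.16 without the largest clonotype of each library and -0.0947 with the Pdcd1 split after thinning. Without the largest clonotypes that of Pdcd1- CD8+ TILs (0.0429) was -0.0219, and with median-ratio scaling that of conventional CD4+ TILs (-0.0431) was -0.0044. The regulatory median (-0.24) was -0.16 with a pseudocount of 20 CPM, -0.27 with totals without mitochondrial, ribosomal protein and receptor genes, -0.33 without doublets and -0.15 without cells holding Mki67 or Top2a. Pdcd1+ over Pdcd1-, the WT median (0.10) was 0.044 as a mean of single-cell CPM, 0.017 without Mki67 or Top2a cells and 0.0199 with the thinned split, which gave -0.13 in VISTA-KO (0.0914). Regulatory over conventional CD4+, the medians were -0.20 in WT and -0.47 in VISTA-KO without Mki67 or Top2a cells. Without thinning the Hspa1a and Hspa1b correlation in WT Pdcd1+ CD8+ TILs (0.56) was 0.70. Hspb1 in Pdcd1+ CD8+ TILs (0.62) turned to -0.37 without the largest clonotypes and -0.35 without Mki67 or Top2a cells. In Pdcd1+ CD8+ TILs Hspa1b (-0.39) passed the fold without the largest clonotypes (-0.59), without Mki67 or Top2a cells (-0.52) and with 2 UMIs of each defining gene (-0.54). Further Hsp70 calls near the threshold ended at values of -0.47 to -0.49.

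With a level limit of 5 CPM in place of 20, the genes past the fold, in the order of the report's kinds, were 251, 281, 487, 555 and 1253 in place of 143, 145, 269, 335 and 579, and with 100 CPM 44, 50, 95, 125 and 107. For Pdcd1+ over Pdcd1- they were 1424 (WT) and 1339 (VISTA-KO) at 5 CPM, 867 and 796 at 20 CPM and 263 and 238 at 100 CPM, and for regulatory over conventional CD4+ 1072 and 1111, 680 and 703, and 208 and 242. Causes of these changes were not tested. Leaving out shared barcodes and cells with melanoma or macrophage UMIs were alternatives chosen after seeing the data. No paired analysis was possible because each genotype had 1 pooled library.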
